A study of Mus musculus with 12 samples.

Results

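The question addressed was how far the gene response to MyoD in fibroblasts depended on Six4. It was measured as a difference of differences on all 12 arrays of the series: the change from empty vector to MyoD in cells with a Six4 hairpin, minus the same change in cells with a control hairpin. The cells were C3H/10T1/2, an established mouse fibroblast line that MyoD can convert to muscle. A stable line carried a short hairpin RNA against luciferase by its name (shLuc, the control), and another carried a hairpin against Six4 (shSix4). Each line received a retrovirus with the empty plasmid (pBABE) or with a Flag- and myc-tagged MyoD (pBABE-MyoD), and 24 h later spent 24 h in medium with 2% horse serum. The 4 groups (shLuc pBABE, shLuc pBABE-MyoD, shSix4 pBABE and shSix4 pBABE-MyoD) held 3 single-colour Agilent arrays each, numbered 1 to 3. Each replicate number was a slide that held 1 array of every group, so the difference was computed within each slide. Each hairpin was represented by a single stable line, so the hairpin and the line cannot be told apart. No label ties the replicates to separate cultures, so p-values cover only the spread between these arrays, and that spread may be technical.

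MyoD is a basic helix-loop-helix transcription factor that binds E-box sequences and switches on the muscle programme, including myogenin, the contractile proteins and the calcium-handling machinery. Six4 is a homeodomain factor. It and its relatives bind the MEF3 sequence, which lies in regulatory regions of myogenin and other muscle genes, and act with Eya and Dach cofactors in myogenesis.

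Of 12301 genes tested, 743 were MyoD-responsive (6.04%), meaning that the mean response of both lines was at least 2-fold at an adjusted p under 0.05 in limma. MyoD induced 620 and repressed 123 of them. This choice rests on the mean of the responses, which in this balanced design is orthogonal to their difference. Both tests use the same estimate of a gene's spread, however, so genes with a low estimate are favoured in both. Sizes of responses are given only for genes that were well above background on at least 1 empty-vector array of each line, which 531 responsive genes were (409 induced, 122 repressed). The other 212 responsive genes, of which 211 were induced, were too dim without MyoD for a fold to be read, and for them levels with MyoD were compared instead. All levels are log2 of the processed signal relative to the array's own 75th percentile, responses are MyoD minus empty vector, and differences are shSix4 minus shLuc. The fibroblast markers Col1a1, Col1a2, Col3a1, Pdgfra, Pdgfrb, Thy1 and Fn1 were above background on all 12 arrays, with a summed log2 level of 9.43 to 10.49. Such a sum follows its brightest genes: Pdgfra read as low as -0.19, on shSix4 pBABE-MyoD replicate 1. The 7 muscle markers summed to 1.36 to 3.38 with the empty vector, to 8.45 to 8.78 with MyoD in shLuc cells and to 6.94 to 7.79 with MyoD in shSix4 cells. Cells that respond less and fewer responding cells cannot be told apart in such bulk RNA. Between 22257 and 27445 probes per array were above background, and each group occupied a fixed position on the slides, so position and group cannot be told apart.

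Six4 itself read -2.55, -2.82 and -1.58 in the shLuc pBABE group and -4.03, -2.94 and -2.76 in the shSix4 pBABE group (slides 1, 2 and 3). The MyoD arrays read -1.38, -1.58 and -0.78 for shLuc and -2.97, -2.86 and -1.47 for shSix4. On every slide the shSix4 array was the lower, although the ranges overlapped with either vector. The difference between the lines was -0.92 with empty vector (adjusted p = 0.160, limma) and -1.18 ± 0.26 (SE, n = 3 per group) with MyoD (adjusted p = 0.0383), so the knockdown was partial at the RNA level. Six4 RNA was 2.10-fold higher with than without MyoD in the shLuc line (adjusted p = 0.0181), and the same ratio was 1.76 in the shSix4 line (adjusted p = 0.0995).

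Myod1 read 0.14, -0.11 and 1.31 on the shLuc arrays that received MyoD, and -2.11, -0.79 and -0.15 on the shSix4 arrays that received it. The shSix4 array was lower on each slide, by 1.46 on average in the fit (log2 difference -1.46, adjusted p = 0.143), and the ranges came close without overlapping. On slides 1 and 2 the empty-vector arrays read -4.71 and -2.49 for shLuc and -4.31 and -1.95 for shSix4. Its spots on slide 3 carried an outlier mark in the empty-vector arrays and are missing. Whether the probe reads the retroviral transcript, the cells' own gene or both was not tested. The lower Myod1 level stands beside every smaller response described here, and its part in them was not tested.

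**Figure D1:**
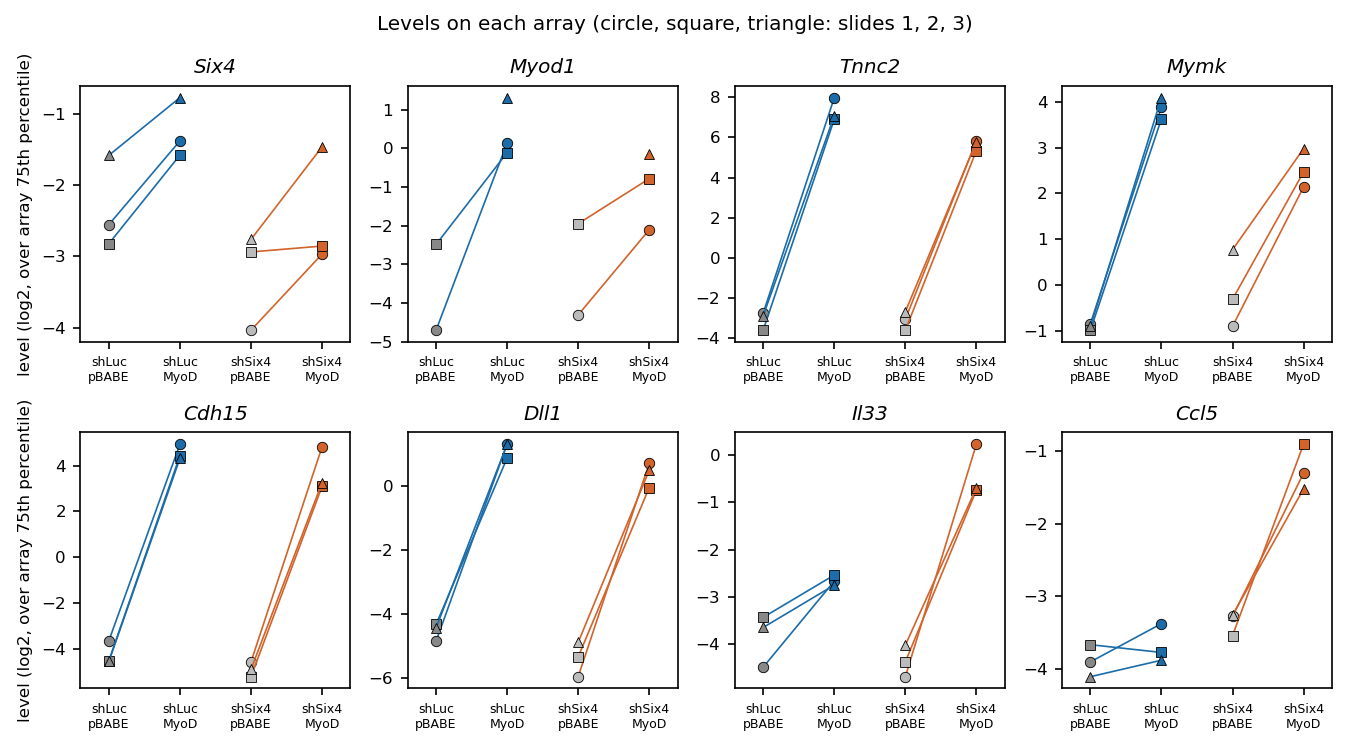
Log2 level relative to the array's 75th percentile (y axis) on each of the 12 arrays for 8 genes, by group (x axis), with lines joining empty vector and MyoD within a slide. With MyoD, Tnnc2 and Mymk lie lower in the shSix4 than in the shLuc line on all 3 slides and Il33 and Ccl5 higher, while the lines for Cdh15 and Dll1 are about equally steep.

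For no gene did the difference of the MyoD response pass the test: 0 of 12301 genes (0%) had an adjusted p under 0.05 in limma with the slide as a block, and the lowest adjusted p was 0.137. Without the block the count was also 0 (lowest 0.226). At an unadjusted p under 0.05 there were 750 genes (6.10%), against 615 that this threshold gives on average when no gene differs, 391 of them with a lower and 359 with a higher response in shSix4 cells. Without the block 255 reached it, and with normexp background correction only 28 did. Among the 531 sized responsive genes 157 reached it, 143 with a smaller and 14 with a larger response in shSix4 cells. Responsive genes were chosen with the same estimate of spread, which can raise this count, so it is no match for the 6.10%. Weakened and strengthened responses, defined by a called difference, therefore numbered 0 each. A kept response, defined by a 95% interval of the difference that lies within 2-fold in either direction, was found for 132 genes (107 induced, 25 repressed), and 399 were undecided. Over all genes tested that interval lay within 2-fold for 74.4%. The kept count was 36 without the block, 36 without replicate 3, 78 without shSix4 pBABE-MyoD replicate 1 and 86 without shLuc pBABE-MyoD replicate 2.

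The induced genes as a group nevertheless had smaller responses in shSix4 cells on all 3 slides. Their median response was 1.82 in shLuc and 1.44 in shSix4 cells, and the median difference was -0.46, with medians of -0.43, -0.40 and -0.50 on slides 1, 2 and 3. Over all genes tested the median difference was 0.06, with 0.07, 0.19 and -0.04 on the 3 slides. Of the 409 induced genes 325 had a value below 0 and 84 above it. The difference was below 0 on all 3 slides for 207 of them (50.6%), against 11.0% of all genes tested, and above 0 on all 3 for 37 (9.05%), against 18.9%. These genes share the same 12 arrays, and 3 slides cannot give a two-sided exact sign-flip p below 0.25. The median line difference of the induced genes was -0.56 with MyoD and -0.09 with empty vector. Among the 122 repressed genes the median difference, turned so that below 0 means a smaller response, was -0.26, but it was 0.02 on slide 1.

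Induced genes with a mean response of 1 to 2 (257 genes) had a median difference of -0.38, those of 2 to 4 (104 genes) of -0.68 and those of 4 to 6 (31 genes) of -0.75. The 17 genes at 6 or more, too few for a firm median, had -0.95, and all 17 were below 0. The steps were not even: from the range of 2 to 4 to that of 4 to 6 the median lay nearer to 0 on each slide, at -0.76 and -0.59 on slide 1, -0.57 and -0.51 on slide 2 and -0.69 and -0.58 on slide 3. On every slide the genes at 1 to 2 had the median nearest to 0 (-0.29, -0.35 and -0.37) and those at 6 or more the one farthest from it (-0.87, -1.17 and -1.16).

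**Figure D2:**
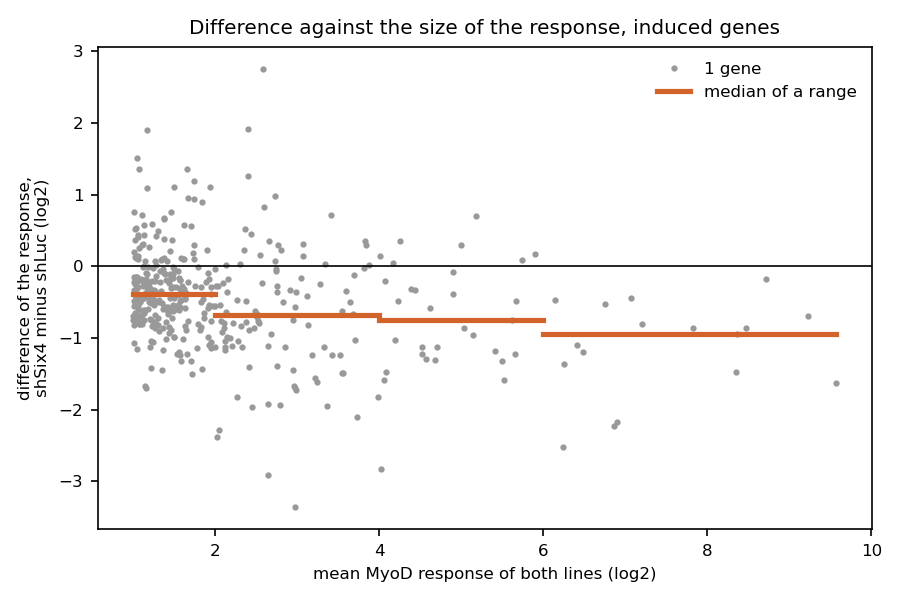
Difference of the MyoD response, shSix4 minus shLuc (y axis, log2), against the mean response of both lines (x axis, log2) for the 409 sized induced genes; bars are the medians of the ranges 1 to 2, 2 to 4, 4 to 6 and 6 or more. The medians over the 3 slides together are -0.38, -0.68, -0.75 and -0.95, and on each single slide the range of 4 to 6 lies nearer to 0 than that of 2 to 4.

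**Figure D3:**
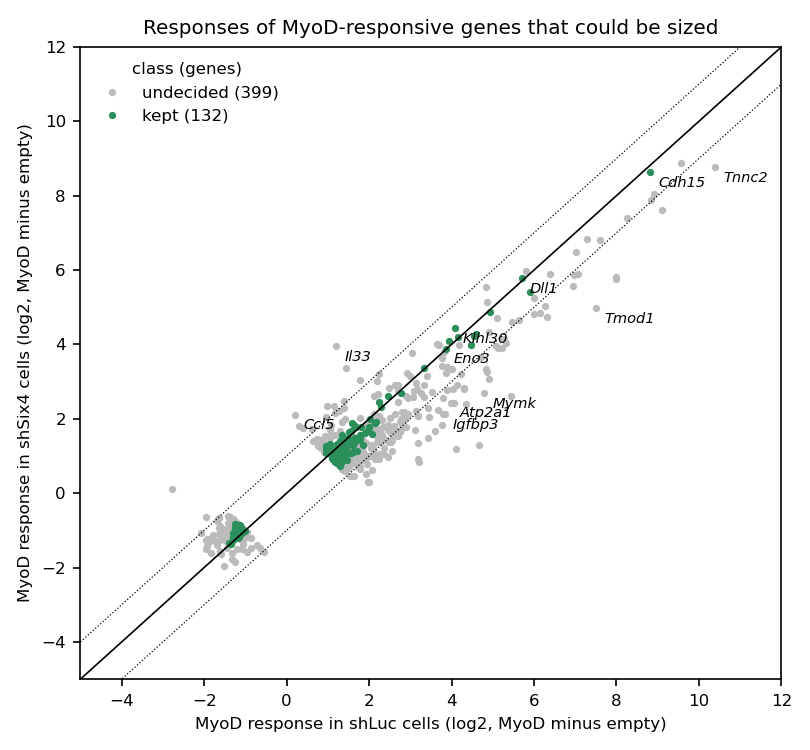
MyoD response in shSix4 cells (y axis, log2) against shLuc cells (x axis, log2) for the 531 sized responsive genes, with the line of equal responses and dotted lines at a 2-fold difference. Kept genes (green, 132) hug the diagonal, and most induced genes lie below it.

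Functions were sorted by the median difference of their sized responsive members: weakened at -0.5 or lower with all 3 slides below 0, strengthened at 0.5 or higher with all 3 above 0, and kept in between. This is a description without a test, over lists with at least 3 such members. The cut of -0.5 lies near the median of all sized induced genes (-0.46), so several kept lists were about as reduced as those. Induced genes with mean responses of 2 to 4, 4 to 6 and 6 or more had medians of -0.68, -0.75 and -0.95. Whether any list differs from induced genes of like response size was not tested. Of 34 lists 8 sorted as weakened, 11 as kept, 1 as strengthened and 14 held too few members. Without shSix4 pBABE-MyoD replicate 1 the counts were 13 weakened and 6 kept. With normexp background correction, which left 239 responsive genes, 2 lists sorted as weakened and 4 as kept.

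**Figure D4:**
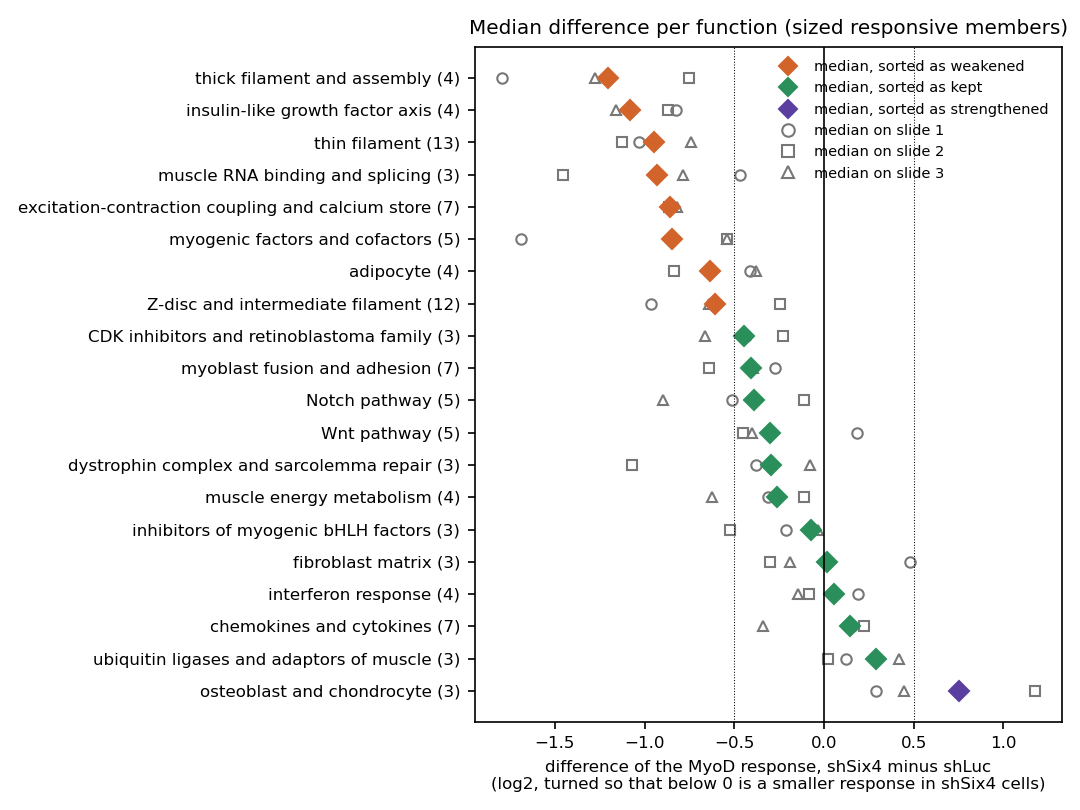
Median difference of the MyoD response per function (x axis, log2, turned so that below 0 is a smaller response in shSix4 cells), with the number of sized responsive members in brackets; diamonds are medians over the 3 slides together and open symbols the median on each slide. Contractile, calcium-handling and insulin-like growth factor lists lie left of -0.5, and most adhesion, metabolic and signalling lists lie between the dotted lines.

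The contractile apparatus sorted as weakened throughout. For the thick filament, which holds the myosin motors, the median difference was -1.21 (slides -1.80, -0.75 and -1.28) over 4 sized members, all below 0 on all 3 slides. Myh7, the slow myosin heavy chain, gave -2.23 ± 0.79 (adjusted p = 0.690), and Myl4, the embryonic and atrial light chain, -1.72 ± 0.38 (adjusted p = 0.242). Mylpf, the fast regulatory light chain, gave -0.69 ± 0.35 and Myom2, an M-band protein, -0.53 ± 0.43. For the thin filament, where troponin senses calcium, 13 sized members had a median of -0.95 (-1.03, -1.13 and -0.74), all 13 below 0 and 8 of them on all 3 slides. For the Z-disc and intermediate filaments, which anchor the sarcomere, the median was -0.61 over 12 members (-0.97, -0.24 and -0.64), 11 of them below 0.

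Tnnc2, fast troponin C, had the largest mean response of the sized thin filament genes. It read -2.74, -3.58 and -2.87 in the shLuc pBABE group and 7.98, 6.91 and 7.08 with MyoD. The shSix4 line read -3.05, -3.59 and -2.67, and 5.84, 5.34 and 5.79 with MyoD. The empty-vector ranges overlapped and the MyoD ranges did not: a response of 10.39 in shLuc cells stood against 8.76 in shSix4 cells. The difference was -1.62 ± 0.29 (95% interval -2.28 to -0.97, adjusted p = 0.182), and the level with MyoD was lower in shSix4 cells by -1.66 (adjusted p = 0.00802). Tmod1, which caps actin filaments, had a difference of -2.52 ± 0.40 (adjusted p = 0.137), with responses of 7.50 and 4.98. Tnnt2, cardiac and embryonic troponin T, gave -1.48 ± 0.46 and Lmod3, an actin nucleator, -0.87 ± 0.36. At the Z-disc Myoz2, a calcineurin-binding protein, gave -2.83 ± 0.97 and Des, the intermediate filament desmin, -1.22 ± 0.46. Pdlim3 and Ankrd1 gave 0.17 ± 0.58 and -0.20 ± 0.43. Myoz2 read -5.26, -6.92 and -7.75 in the shLuc pBABE group. On slides 2 and 3 this was under the lowest level above background on those arrays (-6.68 and -7.01). Its difference came as near to 0 as -0.998 in an alternative. Des too lay under that level in the shSix4 pBABE group on slides 2 and 3 (-7.55 and -7.60, against -5.81 and -6.66). Pdlim3 was not steady in sign: 8 of 24 alternatives put it below 0.

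Many muscle genes were above background only with MyoD, and their levels there were compared directly. Across all genes tested, 331 (2.69%) were lower and 203 (1.65%) higher in the shSix4 than in the shLuc line with MyoD. With empty vector 78 genes (0.634%) differed in either direction. Of the 11 unsized responsive thick filament genes 7 were called lower with MyoD, with a median line difference of -1.87. Unsized genes could enter the test through the MyoD arrays alone, even those of the shLuc line only. Entry through the line where a gene is high favours a lower level in the other. Such counts therefore describe levels with MyoD and not responses, and the shares over all genes are no match for them. The share among all unsized responsive genes was not computed. Myh3, embryonic myosin heavy chain, read 5.41, 5.0 and 5.5 in shLuc cells with MyoD and 2.17, 2.94 and 3.57 in shSix4 cells. The ranges did not overlap, and the difference was -2.41 (adjusted p = 0.0119). Myog, the transcription factor myogenin, read 8.18, 7.99 and 7.88 against 7.22, 6.45 and 6.90. These ranges too stood apart, with a difference of -1.16 that missed the threshold (adjusted p = 0.0689). Ckm, muscle creatine kinase, gave -1.55 (adjusted p = 0.0636). Chrna1, the alpha subunit of the acetylcholine receptor, read 4.73, 4.24 and 4.61 against 3.33, 2.51 and 3.28, a difference of -1.49 (adjusted p = 0.00309) without overlap. The other unsized genes with the lowest adjusted p for the difference of responses were Ephb1, Pygm, Cd36, Rhd and Tex14. All 5 were lower in shSix4 cells with MyoD, from -1.40 for Cd36 to -2.49 for Ephb1, with adjusted p from 0.00802 to 0.0139 (limma). They and Chrna1 were picked on the difference of responses, which holds these same MyoD arrays, so these levels are no separate support. Over the alternatives, the difference of responses nearest to 0 ranged from -0.41 for Pygm to -1.17 for Tex14 among the 5.

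The bases before the start of 4 of these muscle genes are shown for the E-box and MEF3 letters (RefSeq, GRCm38.p6, 250 bases before the annotated start, 5′ to 3′ on the gene's strand). Capitals mark TCAGGTT (MEF3), CAGCTG and CAGGTG (E-boxes) or their reverse complements. Myog lies at chr1:134289754-134290003 (+), Tnnc2 at chr2:164779735-164779984 (-), Atp2a1 at chr7:126463074-126463323 (-) and Mylpf at chr7:127211358-127211607 (+).
Myog: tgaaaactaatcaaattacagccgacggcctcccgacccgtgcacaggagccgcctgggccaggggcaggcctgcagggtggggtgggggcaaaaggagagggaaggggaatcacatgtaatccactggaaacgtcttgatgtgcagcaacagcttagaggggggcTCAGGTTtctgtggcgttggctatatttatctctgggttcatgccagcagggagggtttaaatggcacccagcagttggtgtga
Tnnc2: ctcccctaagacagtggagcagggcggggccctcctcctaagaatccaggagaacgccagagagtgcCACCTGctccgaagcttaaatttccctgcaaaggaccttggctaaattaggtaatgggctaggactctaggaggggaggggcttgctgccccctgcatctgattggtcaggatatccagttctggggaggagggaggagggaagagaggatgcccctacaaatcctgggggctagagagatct
Atp2a1: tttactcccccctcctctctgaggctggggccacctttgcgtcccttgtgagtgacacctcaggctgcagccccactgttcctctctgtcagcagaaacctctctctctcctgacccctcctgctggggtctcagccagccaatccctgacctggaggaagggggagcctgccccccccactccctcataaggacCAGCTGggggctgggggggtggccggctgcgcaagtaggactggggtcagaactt
Mylpf: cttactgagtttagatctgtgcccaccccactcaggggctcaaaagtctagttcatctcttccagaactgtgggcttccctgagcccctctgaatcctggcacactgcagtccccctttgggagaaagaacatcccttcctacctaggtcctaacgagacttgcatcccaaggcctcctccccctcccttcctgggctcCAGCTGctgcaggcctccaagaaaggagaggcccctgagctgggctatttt
The Myog window held TCAGGTT, 84 bases before the start, and no E-box of the kinds searched, while the other 3 windows held an E-box and no TCAGGTT. In the promoter table, with 32851 windows, 3.49% held TCAGGTT and 27.7% held at least 1 of these E-boxes. Among the induced genes with a smaller response on all 3 slides, 152 of 207 had a window, and of their 230 windows 3.91% held TCAGGTT and 37.8% an E-box. Those shares were 3.26% and 36.4% over the windows of all sized induced genes, and 2.76% and 25.8% over those of all genes tested. Of the 100 windows of 77 kept induced genes (of 107) 1% held TCAGGTT and 28% an E-box. By their letters, exact matches of TCAGGTT and of these E-boxes cannot share bases. These are matches of letters and not binding sites.

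Excitation-contraction coupling, by which a voltage signal releases calcium from the sarcoplasmic reticulum, was the most uniform of the weakened functions. Its 7 sized members had a median of -0.86 (-0.85, -0.86 and -0.82), and all 7 were below 0 on all 3 slides. Atp2a1, the fast-muscle calcium pump, read -3.47, -4.41 and -3.88 in shLuc cells without and -0.08, -0.11 and 0.40 with MyoD. In shSix4 cells it read -3.66, -4.25 and -4.27 without and -1.91, -1.75 and -1.21 with MyoD. Only the MyoD ranges stood apart. The responses were 15.9-fold and 5.41-fold, a log2 difference of -1.55 ± 0.36 (adjusted p = 0.272), and the level with MyoD was lower by -1.69 (adjusted p = 0.00980). Cacna1s, the voltage sensor, gave -1.48 ± 0.37 (adjusted p = 0.361) with a MyoD-level difference of -1.73 (adjusted p = 0.0102). Srl, the calcium-binding sarcalumenin, gave -0.86 ± 0.32, and Stac3, an adaptor of the voltage sensor, -0.44 ± 0.42. Of the 8 unsized responsive members 4 were called lower with MyoD, with a median of -1.40. The share over all genes tested, 2.69%, is no match for genes that could enter through the shLuc MyoD arrays alone.

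Myogenic transcription factors and cofactors sorted as weakened with a median of -0.84 over 5 members (-1.69, -0.54 and -0.54, the last without Myod1). Myod1 gave -1.93 ± 0.69 in the fit, with its empty-vector values of slide 3 missing (adjusted p = 0.729). Others were Mef2a at -0.84 ± 0.30, Tead4, the Hippo-pathway factor, at -0.98 ± 0.32, and the kept Klf5. Zbtb18, a repressor that promotes differentiation, gave -0.81 ± 0.24. Zbtb18 read 0.51, -0.15 and -0.66 without and 4.16, 2.96 and 3.20 with MyoD in shLuc cells, and 0.60, -0.78 and -0.58 without and 3.23, 1.95 and 2.23 with MyoD in shSix4 cells. Its levels with MyoD were lower on each slide, by -0.97 in the fit (adjusted p = 0.0149), with ranges that overlapped. The splicing and RNA-binding list had 3 sized members and a median of -0.93. Cpeb3, a translational regulator, gave -1.04 ± 0.21 (adjusted p = 0.205), Rbm38, an RNA-stability factor, -0.93 ± 0.30, and Celf2, a splicing factor, was kept at -0.31 ± 0.26.

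In the insulin-like growth factor axis, whose ligand Igf2 drives myoblast differentiation, 4 sized members had a median of -1.08 (-0.82, -0.87 and -1.16). Igf2 itself was 480-fold and 265-fold higher with MyoD, a log2 difference of -0.86 ± 0.50 (adjusted p = 0.867). Igfbp5, a binding protein, gave -1.30 ± 0.31 (adjusted p = 0.314) and was lower with MyoD by -1.17 (adjusted p = 0.0229). Igfbp3 reached a smaller response in another way. It read -1.93, -3.07 and -2.23 without MyoD in shLuc cells but -0.34, -0.02 and -0.03 in shSix4 cells, and 1.74, 0.84 and 1.65 against 2.14, 1.28 and 2.55 with MyoD. Only the empty-vector ranges stood apart, with shSix4 cells higher by 2.28, and the levels with MyoD differed by 0.58 (adjusted p = 0.255). Its response difference was -1.70 ± 0.37 (adjusted p = 0.228), but -0.34 with normexp background correction.

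The adipocyte list also sorted as weakened, at -0.64 over 4 members, but did so in only 17 of 27 alternatives, with a median as near to 0 as -0.10. Of these Plin4, a lipid-droplet coat protein, and Klf15, a zinc-finger factor, were repressed by MyoD, with responses of -1.63 and -1.94 in the control line against -1.09 and -0.64 in shSix4 cells. Lpl, lipoprotein lipase, was induced and kept at 0.22 ± 0.29, and Zfp423, an adipocyte commitment factor, was induced, with a difference of -0.74 ± 0.53.

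Kept responses were found among adhesion, Notch, metabolic and ubiquitin-ligase genes. Cdh15, muscle cadherin, read -3.65, -4.52 and -4.55 without and 4.94, 4.44 and 4.33 with MyoD in shLuc cells. In shSix4 cells it read -4.57, -5.22 and -4.91 without and 4.83, 3.10 and 3.26 with MyoD. The responses were 449-fold and 396-fold, a log2 difference of -0.18 ± 0.33 (95% interval -0.91 to 0.55). Dll1, a Notch ligand, read -4.85, -4.33 and -4.43 without and 1.31, 0.87 and 1.31 with MyoD in shLuc cells, and -5.96, -5.34 and -4.89 without and 0.71, -0.05 and 0.49 with MyoD in shSix4 cells. Both shSix4 ranges lay below the shLuc ranges, so the line difference was alike with the vectors, and the response difference was 0.08 ± 0.38 (interval -0.77 to 0.94). Itga7, the laminin-binding integrin chain of muscle, gave -0.49 ± 0.21 (interval -0.97 to -0.01), which stays within 2-fold but lies below 0. Mymk, the fusion protein myomaker, stood apart from these in the adhesion and fusion list, whose median was -0.40.

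Mymk read -0.85, -0.99 and -0.91 without and 3.89, 3.63 and 4.09 with MyoD in shLuc cells. In shSix4 cells it read -0.91, -0.32 and 0.77 without and 2.14, 2.47 and 2.98 with MyoD. The MyoD ranges stood apart and the empty-vector ranges overlapped. The responses were 27.6-fold and 6.42-fold, a difference of -2.11 ± 0.39 (slides -1.69, -1.84 and -2.79; adjusted p = 0.183), and the level with MyoD was lower by -1.34 (adjusted p = 0.0290). Adam12, a metalloprotease of fusing myoblasts, gave -1.40 ± 0.45, most of it on slide 2 (-3.07).

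Among the other kept genes with large responses were Klhl30 (0.35 ± 0.27), a kelch protein, Eno3 (0.02 ± 0.30), muscle enolase, Rtn2 (-0.08 ± 0.37), a reticulon, and Ddc (-0.33 ± 0.29), aromatic amino acid decarboxylase. Baiap2l1, an actin regulator, gave -0.32 ± 0.26, Reep1, which shapes the endoplasmic reticulum, -0.48 ± 0.22, and Dusp27, a phosphatase-like protein, 0.15 ± 0.23. E2f2, a cell cycle transcription factor, gave 0.05 ± 0.36 and Ptgds, prostaglandin D synthase, 0.03 ± 0.40. For several of them the lines differed by about the same amount with each vector. Klhl30 was lower in shSix4 cells by -1.45 without and by -1.10 with MyoD (adjusted p = 0.0157 with MyoD), and Dusp27 by -1.14 and -0.99 (adjusted p = 0.0126 with MyoD). A kept response is therefore not a kept level. In energy metabolism the list median of -0.26 hid a spread, with Pgam2, muscle phosphoglycerate mutase, at -1.22 ± 0.42 and Fabp3, a fatty acid carrier, kept at 0.02 ± 0.26. With MyoD 4 of its 5 unsized responsive genes were called lower, at a median of -1.74. Of the 6 unsized ubiquitin-ligase genes 4 were, at a median of -1.41. Over all genes tested the share was 2.69%, again no match for genes that could enter through the shLuc MyoD arrays alone. The sorting of these lists thus describes only the genes that could be sized.

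**Figure D5:**
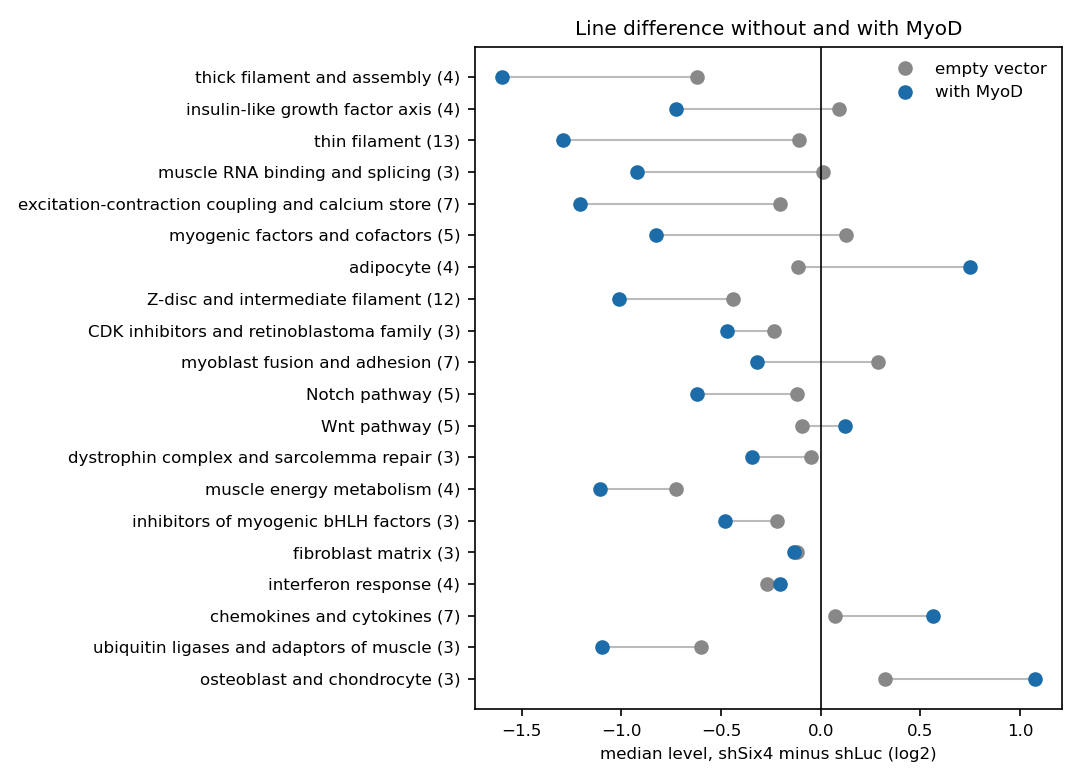
Median line difference, shSix4 minus shLuc (x axis, log2), of the sized responsive members of each function, with empty vector (grey) and with MyoD (blue). The thin filament list stands at -0.11 without and -1.29 with MyoD, whereas energy metabolism is already at -0.72 without MyoD and reaches -1.11 with it.

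The remaining kept lists were the dystrophin complex (-0.29, 3 sized members), inhibitors of myogenic bHLH factors (-0.07, 3), the Notch pathway (-0.39, 5), CDK inhibitors and the retinoblastoma family (-0.44, 3), fibroblast matrix (0.01, 3), the Wnt pathway (-0.30, 5), interferon response (0.06, 4) and chemokines (0.15, 7). A kept median does not mean kept members: 0 members of the dystrophin, Wnt and chemokine lists had a kept response themselves, the others were undecided, and all 5 Wnt members had a smaller response in shSix4 cells. Rb1, the retinoblastoma protein that holds cells out of the cycle, was 4.60-fold and 3.15-fold higher with MyoD, with a difference of -0.54 ± 0.26 (adjusted p = 0.854) and a lower level with MyoD by -0.82 (adjusted p = 0.0392). Hey1 and Hes6, targets and relatives of Notch effectors, gave -0.70 ± 0.43 and -0.79 ± 0.28. Hes1, the classic Notch target, was kept at -0.07 ± 0.24. Wnt5b and Wnt2, secreted ligands repressed by MyoD, gave 0.30 ± 0.43 and 0.46 ± 0.64. In the dystrophin complex, which links the cytoskeleton to the matrix, Sgca, alpha-sarcoglycan, gave 0.29 ± 0.36 and Lama2, a laminin chain, -0.29 ± 0.47. Scx, a tendon bHLH factor, was 6.78-fold and 6.59-fold higher with MyoD. Among matrix genes Col11a1, a collagen chain repressed by MyoD, was kept at -0.01 ± 0.36. The interferon genes Ifit3 and Oas1c, also repressed, were kept at 0.33 ± 0.29 and 0.05 ± 0.24.

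Larger responses in shSix4 cells were seen for a few genes, and signalling genes among them are described here. The sized genes with the lowest p for a difference above 0 were mixed. Stac came first (1.78 ± 0.23, adjusted p = 0.137, limma): it fell with MyoD in shLuc cells (-1.72) and not in shSix4 cells (0.05). It was above background on 0 of 3 shLuc MyoD arrays. Krtap6-1, Olfr772 and Olfr1101, which fell in shLuc and rose in shSix4 cells, stood among them too. The genes named for a difference above 0, other than Il33, were picked after their values were seen. The MyoD arrays enter that pick, so the levels with MyoD of the picked genes are no separate support. Il33, an alarmin cytokine, read -4.48, -3.43 and -3.64 without and -2.66, -2.53 and -2.75 with MyoD in shLuc cells. In shSix4 cells it read -4.68, -4.37 and -4.02 without and 0.23, -0.74 and -0.69 with MyoD. The responses were 2.30-fold and 15.6-fold, and the difference was 2.76 ± 0.47 (slides 3.10, 2.74 and 2.43; adjusted p = 0.146). With MyoD the ranges stood apart and Il33 was higher in shSix4 cells by 2.25 (adjusted p = 0.00980). Ccl5, a T-cell chemokine, read -3.90, -3.66 and -4.10 without and -3.37, -3.77 and -3.88 with MyoD in shLuc cells, and -3.28, -3.54 and -3.26 without and -1.30, -0.90 and -1.52 with MyoD in shSix4 cells. Its 4.33-fold response in shSix4 cells had no counterpart of that size in shLuc cells (1.16-fold), the difference was 1.90 ± 0.26 (adjusted p = 0.137), and the level with MyoD was higher by 2.43 (adjusted p = 0.00142). Traf1, an adaptor of tumour necrosis factor receptors, gave 1.51 ± 0.27 and was higher with MyoD by 1.34 (adjusted p = 0.00915). Vegfc, a lymphatic growth factor, was not MyoD-responsive on average, gave 1.07 ± 0.20 and was higher with MyoD by 1.06 (adjusted p = 0.00915). Of the leukocyte and endothelial markers 8 of 21 were measured, and their summed log2 level with MyoD was 0.62 to 0.72 in the shLuc and 0.56 to 1.05 in the shSix4 line; their part in these cytokine values was not tested. In the chemokine list Il6, an interleukin, was 7.98-fold and 8.82-fold higher with MyoD, and Il15, a myokine named after its value was seen, gave -0.81 ± 0.17.

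The bone and cartilage list was the only function that sorted as strengthened, with a median of 0.75 (0.29, 1.18 and 0.45) over 3 members of unlike sign. Dmp1, a dentin matrix protein, gave 0.82 ± 0.36 (adjusted p = 0.802) and was higher in shSix4 cells with MyoD by 1.29 (adjusted p = 0.0255). Spp1, osteopontin, gave 0.75 ± 0.44 and Ucma, a cartilage matrix protein, -1.20 ± 1.05. Without the replicate block the list's median was -0.19, and the list sorted as strengthened in only 14 of 27 alternatives.

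Several functions held too few sized responsive genes to sort. In the cell cycle list, 25 of 48 measured genes had a difference above 0 on all 3 slides (18.9% over all genes), with a median of 0.29 and 0 genes at an unadjusted p under 0.05. These genes were lower in shSix4 cells with either vector, by medians of -0.94 without and -0.72 with MyoD, and 0 of 48 were called with MyoD. In the sterol and fatty acid synthesis list, 11 of 34 were below 0 on all 3 slides (11.0% over all genes), with a median of -0.34. With MyoD 1 of the 34 was called lower (2.69% over all genes). Fdft1, squalene synthase, gave -0.70 ± 0.22 (adjusted p = 0.598) and was lower with MyoD by -0.69 (adjusted p = 0.0414). At the neuromuscular junction the sized receptor subunits Chrnb1 and Chrnd gave -0.58 ± 0.44 and -0.66 ± 0.52. The 6 measured genes of the Six4 family and its Eya and Dach cofactors, Six4 included, held no responsive member, with Six5 at 0.44 ± 0.24, Six2 at 0.10 ± 0.23 and Eya4 at -0.42 ± 0.28.

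Outside the lists, the sized genes with the lowest adjusted p for a smaller response, picked after their values were seen, were Bspry, Rragd, Npsr1 and Dscam. Rragd, a small GTPase that signals nutrients to mTORC1, was 29.0-fold and 9.64-fold higher with MyoD, a difference of -1.59 ± 0.25 (adjusted p = 0.137). Dscam, a cell adhesion molecule of neurons, gave -3.36 ± 0.55 (adjusted p = 0.145). On slide 1, where its difference was -5.49, Dscam read -8.16 in shLuc and -7.08 in shSix4 cells with empty vector. Both values lay under the lowest level above background on those arrays (-7.14 and -6.33). Npsr1, a neuropeptide receptor, gave -1.97 ± 0.31 and Bspry, a B-box and SPRY domain protein, -1.67 ± 0.25 (both adjusted p = 0.137). Bspry read -0.18, -1.12 and -0.98 in shLuc cells with MyoD and -1.73, -2.91 and -2.55 in shSix4 cells, ranges that did not overlap. Its level with MyoD was lower in shSix4 cells by -1.64 (adjusted p = 0.00579, limma). With empty vector the lines differed by only 0.03, so this level repeats the difference on which Bspry was picked.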

How the data were processed

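The 12 deposited scanner files each hold 1 array of total RNA from C3H/10T1/2 cells. Per the file headers the authors extracted them with Agilent Feature Extraction 11.5.1.1, while the submitters' processing notes give 10.5.1.1. The values used are the processed signal, a Cy3 intensity that the authors' software corrected for background and spatial trend, per the file headers. Arrays were not levelled against each other in these files. Other columns hold the spot and background median intensity and outlier and background flags. The authors also deposited a table of log2 values levelled between arrays. Its method is not stated in the sources used here, its copy covers 3867 of the probes, and it served as an alternative. Groups come from titles and characteristics. The description field names another cell line and other stages and was not used.

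Levels are log2 processed signal minus the 75th percentile of the array's non-control probes. Control and outlier-marked spots were left out, spots of a probe were averaged, and a probe entered when 1 group or more had it well above background on all its 3 arrays (23968 probes). Of 41174 probes 24844 were named through RefSeq accessions (GRCm38.p6). The brightest named probe stood for a gene, which gave 12301 genes, 145 of them with a missing value. No spot was saturated. Precision is limited by the number of arrays.

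Genes were fitted with limma 3.58.1 in R 4.3.3 with a mean per group and the slide as a block (6 residual and 3.40 prior degrees of freedom), with Benjamini-Hochberg adjustment over all genes. Replicate number and slide coincide. The pairing rests on the shared slide. Same-numbered arrays deviated together from their group means (18 pairs, r 0.28 to 0.82, against -0.73 to 0.50 for 36 other pairs, across 12156 genes). Deviations within a group sum to 0, so part of this contrast is built in. The 0.50 was between slides 2 and 3 (shSix4 pBABE replicate 2 and shSix4 pBABE-MyoD replicate 3). Slide 1 was scanned on another day than slides 2 and 3. Errors are limma standard errors. The script was tested on simulated data. Alternatives were no block, within-slide differences alone, median and quantile scaling, normexp with offset 50 on the median intensities (the files used here have no mean signal), the authors' table, other filters and thresholds, and each array or slide left out.

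Named were Six4, Myod1, Myog, Myh3, Mymk, Cdh15, Igf2, Dll1, Ckm and Rb1, the 12 kept genes with the largest mean response, the 6 unsized genes with the lowest adjusted p and up to 4 sized members per list. The rule's places for weakened, strengthened and called genes stayed empty. Chosen after their values were seen were Bspry, Rragd, Npsr1, Dscam, Tmod1, Ccl5, Traf1, Vegfc, Il15, Klf5 and Zfp423. The lists and the comparison itself were chosen with earlier results of these data known. RefSeq promoter windows (27025 genes) were searched on both strands.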

Additional observations from a re-analysis of the deposited data

How the results depend on the processing

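The difference of the responses was called for 0 genes in the fit reported and for 0 in all alternatives but 5. Within-slide differences alone called 1 gene (Cmtm5), quantile normalization 2 (Chrna1 and Klrb1a) and the authors' deposited values 1 (Myh6). Leaving out replicates gave 0 to 1 genes, with Cd36 called without shLuc pBABE replicate 2 and Cmtm5 without replicate 1. Of these only Cmtm5 was above background in empty-vector cells of each line, so for the others no size can be read. Weakened and strengthened responses stayed at 0 in every alternative. The 743 responsive genes became 239 with normexp, 130 in the authors' table, which covers fewer genes, 385 with probes above background on all 12 arrays and 317 at 4-fold, and 635 to 825 with replicates left out. The 132 kept genes became 36 without the replicate block, 212 with within-slide differences alone, 15 with normexp, 17 in the authors' table, 19 at 4-fold and 5 within 1.5-fold, and 36 to 158 with replicates left out. The 8 weakened functions became 2 with normexp and 1 with the authors' deposited values (7 to 13 with replicates left out). The 11 kept functions became 6 without the block, 4 with normexp, 0 in the authors' table, 7 with probes above background on all 12 arrays and 7 with genes sized on all 6 empty-vector arrays (6 to 14). The 1 strengthened function became 0 with normexp, in the authors' table, with probes above background on all 12 arrays and with genes sized on all 6 empty-vector arrays, and 0 to 2 with replicates left out. The bone and cartilage list reversed to -0.19 without the block. The causes were not tested, beyond the fewer genes or arrays that an alternative keeps. The sized induced genes had a median below 0 in every alternative, from -0.35 without shSix4 pBABE-MyoD replicate 2 to -0.76 at 4-fold. The median difference of all genes was 0.09 with median scaling, 0.05 with quantile normalization and -0.05 with normexp. Under normexp many single differences were nearer to 0 by over 1.5 times, among them Tmod1 (-0.76), Tnnc2 (-0.85), Atp2a1 (-1.01), Cacna1s (-0.86), Igfbp5 (-0.43), Cpeb3 (-0.37), Rragd (-0.49), Npsr1 (-0.70), Bspry (-0.79) and Dscam (-1.31). Igfbp5 was -0.82 without replicate 1. Genes near background in empty-vector cells limit every size given here.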
